A study of Arabidopsis thaliana with 4 samples.

Results

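Cytochrome P450 monooxygenases were examined in whole seedlings of Arabidopsis thaliana after aluminium treatment. The genes were taken by name: a probe set counted as a P450 when the probe-to-gene table of the array paired it with exactly 1 gene whose symbol had the form of a P450 name, a family number, a subfamily letter and a gene number. This gave 22 genes, each with 1 probe set, out of 13356 genes so paired and 22746 plant probe sets on the array. The RefSeq gene table of assembly TAIR10.1 holds 225 such P450 symbols, and the other genes were not analysed here. Of the 22 genes, 18 belong to subfamily CYP71B, and the other 4 are CYP51G2, CYP78A9, CYP79A2 and CYP84A4. All but CYP51G2 fall in the CYP71 clan, so 21 genes represent that clan, and 0 genes came from the CYP72, CYP85 or CYP86 clans.

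Both groups were seedlings with a root of a few centimetres, moved from agar plates to a diluted Murashige and Skoog liquid medium with sucrose for 16 h. The treated group received 50 µM aluminium, an ion that stops root growth in acid soil, and the control group was mock-treated. Total RNA from 100 pooled seedlings was hybridized to each Affymetrix ATH1 array, with 2 aluminium arrays and 2 control arrays, described in the labels as biological replicates. The plant accession and age are not given in the sources used here, and the labels repeat the aluminium medium under all 4 arrays, so that the titles alone separate the groups. Each pool mixed roots and shoots, and a lower signal from fewer cells of a type cannot be told apart from less RNA per cell.

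P450s are haem enzymes, most of them anchored in the membrane of the endoplasmic reticulum, that use molecular oxygen and electrons from a reductase to oxidize small molecules. In plants they build hormones, sterols, cuticle lipids, phenylpropanoids and defence compounds, and they detoxify foreign chemicals. The CYP71B subfamily is one of the most expanded in Arabidopsis and sits largely in tandem arrays. Its best known member, CYP71B15 (PAD3), makes the antimicrobial camalexin and was not analysed here. Tandem copies resemble each other in sequence, so a probe set made for one may also bind transcripts of its neighbours.

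The arrays limited what could be seen. Signals are deposited intensities, and all differences are aluminium minus control on the scale log2(intensity + 16), which understates changes of dim genes. Background was set on each array as the 95th percentile of 27 bacterial control probe sets, a strict level of 422 to 586. The median of these controls was far lower, at 73.5 to 139, so a gene below background may still exceed most of them. The plant median also lay below the background level, at 327 to 351. The 18 hybridization controls had a geometric mean of 131442 and 11226 on the aluminium arrays 1 and 2 and of 51057 and 6339 on the control arrays 1 and 2. Whether these controls were added equally to all arrays was not tested. Aluminium replicate 1 stood apart from the other 3 arrays in further control signals. Its 3′ to 5′ signal ratio, a measure of RNA integrity, was 3.52 for GAPDH (others 1.44 to 1.71) and 6.01 for actin (others 1.94 to 3.07). Its 25S ribosomal RNA signal was 3511 (others 416 to 1362), and 35.1% of its plant probe sets were above background (others 39.8% to 45.3%). The part of these signals in the differences below was not tested. Of the leaf marker list, 4 of 20 genes were measured, and their summed intensity was 6832 and 11353 with aluminium against 31772 and 23017 in controls. Of the root marker list, 4 of 20 genes were measured, with sums of 939 and 2282 against 1638 and 1786. RCA, the Rubisco activase of green tissue, read at least 2491 on every array, and PRK and SBPASE were also above background on all 4. The leaf marker LHCB4.1 was above it on 3 and read 52.3 on aluminium replicate 1. PYK10, a root beta-glucosidase, was above background on 3 of the 4 arrays and read 389.5 on aluminium replicate 1, below the level of 586 there. The root marker EXPA18 was above it on 2 arrays, and EXPA7 and AGL42 on 0. AGL42 had a higher mean with aluminium, by 1.24, and the other 3 root markers a lower one. The part of tissue make-up in the P450 values was not tested.

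No P450 gene passed the test for aluminium against control. The largest differences were CYP71B37 and CYP71B28, whose aluminium values both exceeded their control values, by 2.69 and 2.03 on the log2 scale. CYP71B37 was above background on 0 of 4 arrays and CYP71B28 on aluminium replicate 1 alone, so both differences were taken against signals that were not above background and their sizes are uncertain. CYP79A2, CYP71B22 and CYP71B6 had both aluminium values under both control values, by 1.42, 0.73 and 0.48 on the same scale. The CYP79A2 difference rested on control replicate 1, its 1 array above background, and was −0.29 without it. CYP71B23 was the steadiest of the 22, between 617 and 817 on all arrays, and CYP51G2 differed between the group means by 0.04.

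By limma with Benjamini-Hochberg adjustment over all probe sets, 0 of the 22 genes were below the threshold of 0.05, as were 0 of 22746 probe sets (0%), and the smallest adjusted p among the P450s was 0.966. A variance that follows the mean and the replicate number as a block each gave 0 as well. At an unadjusted limma p under 0.05 there were 2 P450 genes, 9.09% of the 22, against 4.77% of all probe sets. The 95% interval of the difference included 0 for 20 of the 22 genes and reached a median of 1.98 to each side over all probe sets, so a difference of that size or less could typically not be told from 0 even before adjustment. An exact permutation test on 1 gene cannot go below p = 0.333 with 2 arrays against 2.

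**Figure D1:**
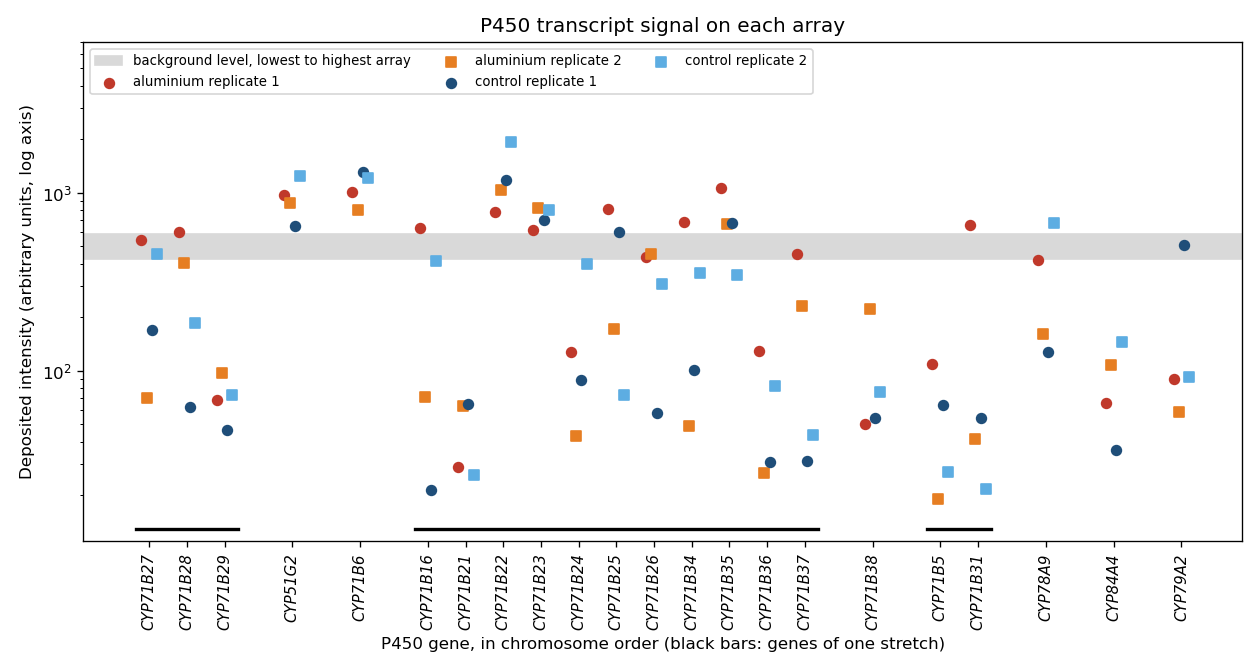
Deposited intensity (log axis) of the 22 P450 genes on each of the 4 arrays, in chromosome order, with black bars under genes of one stretch and a grey band from the lowest to the highest background level (422 to 586). Each point is 1 array. CYP51G2, CYP71B6, CYP71B22 and CYP71B23 lie above the level of their array on all 4 arrays, whereas 10 genes lie below it on all 4. Heights of different genes come from different probe sets and cannot be set against each other.

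The groups did not overlap in 6 of 22 P450 genes, or 27.3%, against 32.7% of all probe sets, 3 with both aluminium arrays higher (background 16.5%) and 3 with both lower (background 16.2%). The share was thus no higher than the background. With a difference of at least 2-fold between group means in addition, 4 genes were left (18.2% of the 22, background 19.6%), of which 3 were higher (13.6%, background 9.66%) and 1 was lower (4.55%, background 9.93%). Those 4 genes were CYP71B26, CYP71B28, CYP71B37 and CYP79A2, and all of them lay in the dimmer 50% of probe sets. Only 6 P450 genes belonged to the brighter 50%, and 0 of these met the 2-fold rule, which 7.79% of that brighter set met upwards and 9.50% downwards, so 0 of 6 says little about the P450s.

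Among P450s with an assigned reaction, the glucosinolate gene CYP79A2 (AT5G05260) differed most downwards. Its product turns phenylalanine into the aldoxime from which benzylglucosinolate is made. CYP79A2 read 89.7 and 59.0 on the aluminium arrays and 509 and 92.5 on the controls. Control replicate 1 stood far above the other 3 arrays and was the 1 value above background. The log2 means were 6.48 ± 0.35 under aluminium and 7.90 ± 1.61 without it (SD, n = 2 each). They differed by −1.42, and the 95% interval ran from −3.76 to 0.91 (limma adjusted p = 0.966). Without control replicate 1 the difference was −0.29.

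CYP71B6 (AT2G24180) acts in indole metabolism, where it converts indole-3-acetonitrile, a precursor it shares with camalexin. It read 1006 and 805 on the aluminium arrays and 1316 and 1209.8 on the controls, above background on every array. Both aluminium arrays were below both controls, and the replicates lay close together. The log2 means were 9.84 ± 0.22 and 10.32 ± 0.08 (SD, n = 2 each). They differed by −0.48, and the 95% interval ran from −2.12 to 1.16 (limma adjusted p = 0.98). With 1 array left out the difference ranged from −0.64 to −0.32, and without overlap between the groups its sign could not change.

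CYP71B31 (AT3G53300) oxidizes the monoterpene alcohol linalool in flowers. It read 663 and 41.3 on the aluminium arrays and 54.4 and 21.7 on the controls. Only aluminium replicate 1 was above background, and the other aluminium array lay between the controls. The difference was 1.94 (95% interval −1.17 to 5.04), and 0.15 without aluminium replicate 1.

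CYP84A4 (AT5G04330) belongs to the family of ferulate 5-hydroxylase and takes part in the synthesis of arabidopyrones, pyrone compounds derived from phenylpropanoids. It read 66.4 and 107 on the aluminium arrays and 36.1 and 146 on the controls, below background throughout. The aluminium values lay between the control values, and the difference was 0.13 (standard error 0.83). CYP78A9 (AT3G61880) belongs to a family that promotes the growth of seeds and fruits. It read 418 and 160 on the aluminium arrays and 128 and 675 on the controls, so that the first aluminium array was above the first control and the second below the second. The difference of CYP78A9 was −0.19 (standard error 1.01).

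CYP51G2 (AT2G17330) is named after the CYP51 sterol 14-demethylases, and RefSeq lists it as a transcribed pseudogene. Its probe set read 968 and 872 on the aluminium arrays and 648 and 1237 on the controls, above background on all 4 arrays. Whether the signal came from this locus or from CYP51G1, the coding member of the family, was not tested. The controls lay on either side of both aluminium values, and the difference was 0.04 (95% interval −1.72 to 1.79). CYP71B27, the other annotated transcribed pseudogene among the 22, read 542 and 70.0 on the aluminium arrays and 169 and 453 on the controls, below the background of each array.

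**Figure D2:**
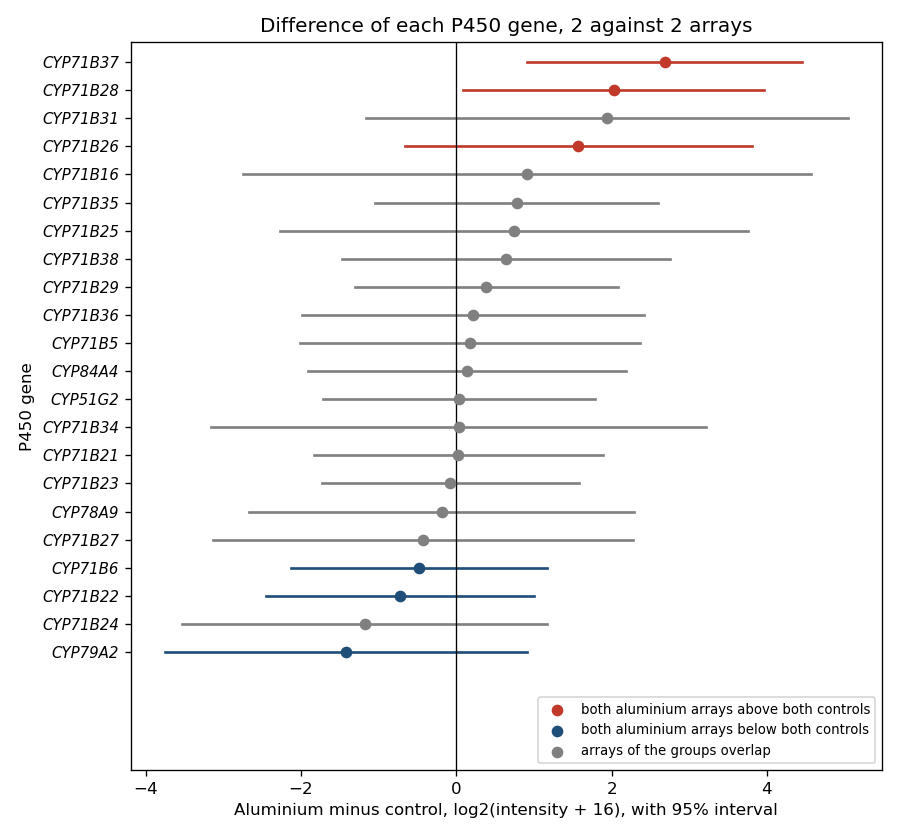
Aluminium minus control difference of each P450 gene on the log2(intensity + 16) scale (points) with its 95% limma interval (lines), 2 arrays per group. Red marks the 3 genes with both aluminium arrays above both controls, blue the 3 with both below, grey the rest. Intervals of CYP71B37 and CYP71B28 lie above 0, before adjustment over all probe sets, and the other 20 include it.

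The remaining CYP71B genes have no reaction assigned here and are described by their place in the genome. The largest stretch runs on chromosome 3 from CYP71B16 (AT3G26150) to CYP71B37 (AT3G26330). It holds 22 annotated coding genes and transcribed pseudogenes, 18 of them P450s, and 11 of these P450s were measured. Of the 11, 8 had a higher mean with aluminium (72.7%, all probe sets 50.4%) and 3 a lower one. The median difference of the 11 was 0.21 (all probe sets 0.01), from 0.63 within number 1 and 0.04 within number 2.

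At the end of the stretch, CYP71B37 read 454 and 233 on the aluminium arrays and 31.2 and 43.9 on the controls. Both aluminium values were several times both controls, although all 4 lay below the strict background level of their array. The log2 means were 8.42 ± 0.65 and 5.73 ± 0.24 (SD, n = 2 each). They differed by 2.69, and the 95% interval ran from 0.91 to 4.46. This was the smallest limma p of the 22 genes (unadjusted p = 0.0102), and it did not pass over all probe sets (adjusted p = 0.966). The difference stayed between 2.23 and 3.14 whichever array was left out. Its nearest neighbour, CYP71B36, read 129 and 26.8 on the aluminium arrays and 30.9 and 82.7 on the controls, with overlapping groups and a difference of 0.21.

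CYP71B35, the next gene along, was among the bright members. It read 1062 and 667 on the aluminium arrays and 680 and 345 on the controls, so that the lower aluminium array fell just under the higher control. The difference was 0.78 (95% interval −1.05 to 2.60), and 0.63 and 0.92 between the arrays labelled replicate 1 and those labelled replicate 2. The labels give these numbers no further meaning. CYP71B34 beside it read 684 and 48.7 on the aluminium arrays and 102 and 354 on the controls. The group means of CYP71B34 differed by 0.03, while the arrays of number 1 differed by 2.57 and those of number 2 by −2.52.

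CYP71B26 (AT3G26290) read 436 and 452 on the aluminium arrays and 58.0 and 308 on the controls. The aluminium arrays were alike and above both controls, which were far apart, and all 4 values lay below background. The difference was 1.57 (95% interval −0.66 to 3.80, limma adjusted p = 0.966), and 0.50 without control replicate 1. CYP71B25 read 814 and 171 on the aluminium arrays and 603 and 73.3 on the controls, high on both arrays of number 1 and low on both of number 2, and its difference was 0.74.

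In the first part of the stretch lie 2 genes with signal above background on every array. CYP71B22 (AT3G26200) read 783 and 1031 on the aluminium arrays and 1174 and 1919.7 on the controls. Both aluminium arrays were below both controls. The difference was −0.73 (95% interval −2.46 to 0.99, limma adjusted p = 0.966), and it ranged from −1.08 to −0.38 when 1 array was left out. CYP71B23 next to it read 617 and 817 on the aluminium arrays and 704.9 and 797 on the controls. The groups overlapped, and the difference was −0.08 (95% interval −1.73 to 1.58).

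The other 3 genes there were dim or erratic. CYP71B24 read 127 and 42.9 on the aluminium arrays and 88.9 and 399 on the controls. Control replicate 2 was the high array, the difference was −1.18, and it was −0.19 without that array. CYP71B16 read 632 and 71.5 on the aluminium arrays and 21.3 and 414 on the controls, 1 high array in each group, so that its difference of 0.91 had a standard error of 1.49. CYP71B21 stayed between 26.1 and 65.0 on all arrays, with a difference of 0.03.

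On chromosome 1, CYP71B27, CYP71B28 and CYP71B29 lie in a stretch of 4 P450s. CYP71B28 (AT1G13090) read 605 and 406 on the aluminium arrays and 62.6 and 185 on the controls. Both aluminium arrays exceeded both controls, and aluminium replicate 1 was above background. The log2 means were 9.001 ± 0.39 and 6.97 ± 0.96 (SD, n = 2 each). They differed by 2.03, and the 95% interval ran from 0.09 to 3.96 (limma unadjusted p = 0.043, adjusted p = 0.966). The difference ranged from 1.35 to 2.70 when 1 array was left out. The adjacent CYP71B29 was dim and even, between 46.7 and 96.8, with a difference of 0.39. The group means of CYP71B27 differed by −0.43, from 1.59 within number 1 and −2.45 within number 2.

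The last CYP71B genes are CYP71B5 and CYP71B38. CYP71B5, close to CYP71B31 on chromosome 3, read 109 and 19.2 on the aluminium arrays and 64.1 and 27.1 on the controls, with a difference of 0.17. CYP71B38 (AT3G44250) read 50.6 and 222 on the aluminium arrays and 54.6 and 75.9 on the controls. Aluminium replicate 2 was its 1 high array, and the difference was 0.64. Both genes were below background on all arrays, and their groups overlapped.

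As a family, the 22 P450s had a median difference of 0.15, against 0.01 over all probe sets. The mean was higher with aluminium in 15 genes and lower in 7, and over all probe sets it was higher in 50.4%. For the 18 CYP71B genes alone, which are all of family CYP71 here, the median was 0.30, with 13 genes higher and 5 lower. These medians changed with the arrays used, and the part of RNA integrity in them was not tested. Over the 22 genes the median was −0.19 without aluminium replicate 1, −0.22 without control replicate 1, 0.69 without aluminium replicate 2 and 0.56 without control replicate 2. For the 18 CYP71B genes the 4 values were −0.10, 0.29, 1.09 and 0.47 in the same order.

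Within replicate number 1 the median P450 difference was 0.64 (all probe sets 0.05), and within number 2 it was −0.34 (all probe sets −0.02). The difference had the same sign in both numbers for 10 of 22 genes, or 45.5%, against 51.6% of all probe sets. CYP71B16, CYP71B34, CYP71B27, CYP78A9 and CYP71B36 differed by more than 1 in opposite directions, higher with aluminium in number 1 and lower in number 2. CYP71B37 and CYP71B28 were the 2 genes that differed by more than 1 in the same direction in both.

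**Figure D3:**
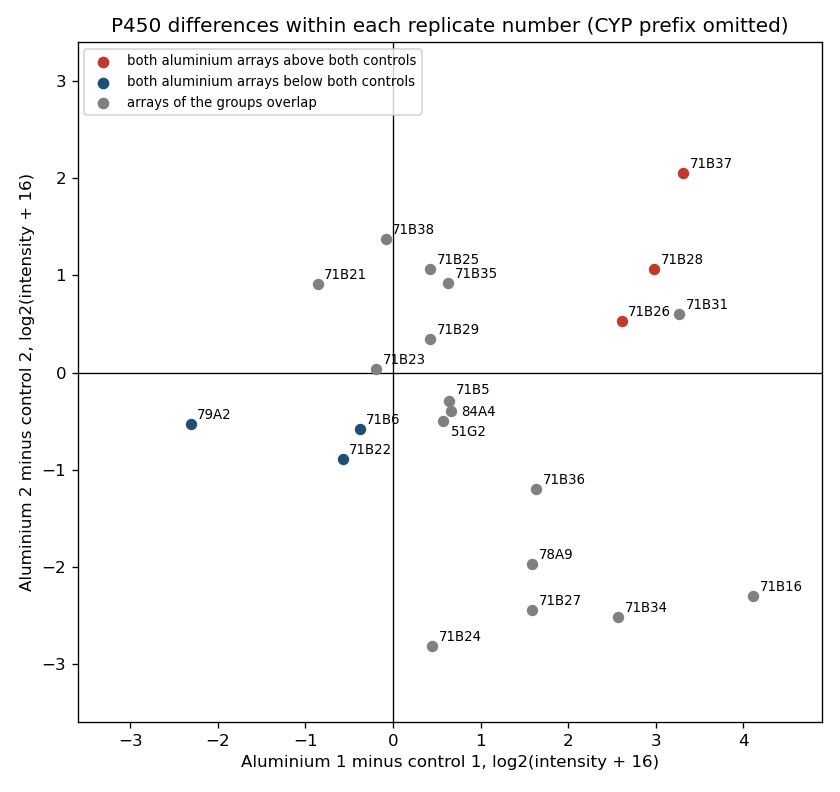
Difference between the aluminium and the control array of replicate number 1 (horizontal) and of number 2 (vertical) on the log2(intensity + 16) scale, 1 point per P450 gene. Points in the upper right and lower left quadrants share their sign, which were 10 of 22, and CYP71B37 lies farthest into the upper right at 3.32 and 2.05.

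Arrays of one treatment were farther apart than the group means, which average 2 arrays each. The median gap between the 2 aluminium arrays was 0.87 per P450 gene and that between the 2 control arrays 1.01, while the group means were 0.56 apart in absolute value. Over all probe sets these values were 0.90, 0.76 and 0.63. The highest array was at least 4-fold above the lowest for 15 of 22 P450 genes (68.2%, all probe sets 53%). Aluminium replicate 1 was the highest array for 10 of the 22 genes (45.5%), where it was highest for 31.8% of all probe sets, and control replicate 1 was the lowest for 8 (36.4%, all probe sets 26.7%). The 4 genes above background on every array (18.2%, all probe sets 18%) had a ratio of highest to lowest array of 1.33 to 2.45, and the other 18 genes of 2.07 to 30.6. Another 10 genes lay below it on every array (45.5%, all probe sets 34.7%). These 10 had a median gap of 1.101 within the aluminium group and 1.01 within the control group. For the 8 genes above background on 1 to 3 arrays the gaps were 1.72 and 1.96. That class takes genes whose arrays lie on both sides of the background level, so its wider gaps follow in part from how it was formed. These classes use the same values as the gaps and are given as a description.

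Few genes of the pathways around these P450s could be looked up. A listed gene counted as measured only when the probe-to-gene table paired it with a probe set. That table paired 13513 of the 22746 plant probe sets with exactly 1 gene. Listed genes that were not measured may therefore still have a probe set on the array. Of 94 P450s listed by known role, 5 were measured, all described above, and the lists for brassinosteroids, gibberellins, abscisic acid breakdown, jasmonates, cytokinins and strigolactones, cuticle lipids, sterols and carotenoids, and iron-deficiency coumarins had 0 measured members. Of 186 listed partner genes, 15 were measured, and 0 passed limma (1 of 15 at an unadjusted p under 0.05, where 4.77% of all probe sets were). None of the 13 listed electron donors of P450s, such as the NADPH-dependent reductases, was among them.

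In glucosinolate synthesis, 4 of 34 partners were measured, and 1 of these (25%) had groups without overlap, against 32.7% of all probe sets. BCAT4, which starts the chain extension of methionine, read 802 and 828 on the aluminium arrays and 628 and 633 on the controls, a difference of 0.36. In phenylpropanoid and flavonoid synthesis, 6 of 28 were measured, with 1 higher (16.7%, all probe sets 16.5%) and 2 lower (33.3%, all probe sets 16.2%) without overlap. With lists this short, such counts are no result about the lists. DFR, dihydroflavonol reductase, read 806 and 505 against 948 and 1419, a difference of −0.85. Of the brassinosteroid and sterol partners, 1 of 20 was measured. This receptor gene, BRL1, read 165 and 300.4 with aluminium against 30.2 and 34.6, below background on all arrays, a difference of 2.31. Of the gibberellin partners, 3 of 20 were measured, the receptors GID1A (0.44), GID1B (−2.00) and GID1C (−2.17). Of these, GID1C alone had groups without overlap (33.3%, all probe sets 32.7%). GID1B differed by −4.16 within number 1 and by 0.17 within number 2. In the cuticle list 1 of 34 was measured, FACT, which joins caffeic acid to the fatty alcohols of suberin, with 750 and 621 against 1277 and 1025 and a difference of −0.73.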

How the data were processed

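The authors deposited a linear intensity for every probe set. Per the submitters' processing notes GCOS and RMA were used, in roles not stated there. Each array of the deposited table has a mean, taken without its lowest and highest 2%, of 500.0, so the arrays were scaled globally. Of 22810 probe sets, 64 control probe sets were left out of tests and no dim ones. Here intensities were turned into log2(intensity + 16) and compared by limma 3.58.1 in R 4.3.3, two-sided, with Benjamini-Hochberg adjustment over 22746 probe sets at 0.05 and no covariate. The step was tested on simulated data with less spread between arrays than here, where the prior SD of the fit was 0.81. That check does not show how well changes are found in these data.

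The members and lists were chosen with earlier results of these data known. The naming rule took role-list members, the extremes of a family of at least 5 genes and the 10 largest non-overlapping differences above background in each direction; since 22 genes were measured, all are named. Partner genes named are examples chosen after their values were seen. All 22 matched RefSeq (TAIR10.1) by gene identifier, used for names and gene order only. A further 6 probe sets with CYP symbols outside the rule were left out of the comparison, and values of some of them are given under other observations. The listed partner APK1 was left out because that name belongs to a protein kinase in the probe table. Replicate numbers were not taken as pairs: the labels tie them to no shared batch, and there are 2. The hybridization controls and the 25S signal were nevertheless higher on both arrays of number 1 than on both of number 2. The number of arrays limits the precision. Alternatives were a replicate block, quantile normalization, median centring, pseudocounts 1 and 64, leaving out the dimmest 50%, all probe sets per gene, a variance trend and leaving out arrays. Each P450 gene had 1 probe set, so taking all probe sets per gene repeated the main comparison and could not differ from it.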

Additional observations from a re-analysis of the deposited data

How the results depend on the processing

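The count of 0 P450 genes past limma held under every alternative that gave a test, with a smallest adjusted p of 0.403 without aluminium replicate 2. With the replicate number as a replicate block the count was 0 (smallest adjusted p 0.899). Then 4 genes met the 2-fold rule upwards with the same sign in both numbers (18.2%, all probe sets 12.0%) and 1 downwards (4.55%, all probe sets 12.3%). The differences and medians could not move under this setting, because each number holds 1 array of each group. Same-numbered arrays deviated together with a correlation of 0.0867 across probe sets, over only 2 pairs. Without the dimmest 50% of probe sets, 6 P450 genes were left, of which 0 were higher and 0 lower by the 2-fold rule (7.79% and 9.50% of the probe sets kept). When arrays were left out, singly or by replicate number, between 4 and 10 genes were higher and between 1 and 6 lower by that rule. Fewer arrays can overlap then, and 14.4% to 24.2% of all probe sets were higher and 14.8% to 24.3% lower. The 10 genes higher without aluminium replicate 2 were 45.5% (all probe sets 21.5%), and the 6 lower without replicate number 1 were 27.3% (all probe sets 16.1%). The median over the 22 genes then ranged from −0.34 to 0.69, that of the CYP71 clan from −0.33 to 0.92 and that of family CYP71 from −0.10 to 1.09. Under settings with all 4 arrays, 20 of 22 genes kept their sign. The replicate block and leaving out dim probe sets could not change a difference. Sign changes were thus possible only with quantile normalization, median centring and the other pseudocounts. The share of all probe sets that kept their sign was not determined. CYP71B21 turned to −0.035 with quantile normalization and CYP71B34 to −0.048 with a pseudocount of 1, and the cause was not tested.

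When 1 array was left out at a time, 10 genes kept their sign. For CYP71B37, CYP71B28, CYP71B26, CYP71B22, CYP71B6 and CYP79A2 this was fixed in advance, because their groups did not overlap. The others were CYP71B24, CYP71B29, CYP71B31 and CYP71B35. The share over all probe sets was not determined. With single arrays and replicate numbers left out, the genes that changed sign ranged as follows: CYP51G2 from −0.50 to 0.57, CYP71B16 from −2.30 to 4.12, CYP71B21 from −0.86 to 0.92, CYP71B23 from −0.27 to 0.12, CYP71B24 from −2.82 to 0.45, CYP71B25 from −0.65 to 2.14, CYP71B27 from −2.45 to 1.59, CYP71B34 from −2.52 to 2.57, CYP71B36 from −1.20 to 1.63, CYP71B38 from −0.27 to 1.56, CYP71B5 from −0.74 to 1.09, CYP78A9 from −1.97 to 1.59 and CYP84A4 from −0.68 to 0.95. Signal over background limits the 10 genes that were below it on all arrays.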

Other observations

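A probe set shared by CYP71B19 and CYP71B20, neighbours in the same stretch of chromosome 3, was outside the gene list because it matches both. In number 1 it read 290 with aluminium and 134 in the control, but in number 2 it read 1561 and 1584. Both arrays of number 2 were thus high and both of number 1 low. The probe set of CYP71B30P, between CYP71B5 and CYP71B31, read 37.5 and 140 on the aluminium arrays and 104 and 167 on the controls. CYP718, a P450 whose name carries no subfamily letter, read 66.0 and 63.98 on the aluminium arrays and 88.99 and 109 on the controls, lower on both aluminium arrays and below background throughout.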
